A study of Mus musculus with 48 samples.

Results

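Interferon-induced genes were described across RNA samples of mouse liver, kidney, hypothalamus, testis and ovary. The group comprised 37 genes listed by name, of which 35 had a probe set of their own, out of 12393 genes with such a probe set on the array. Isg15 was read only by a probe set shared with another gene and Xaf1 by none with its name alone, so neither was measured here. The 35 genes were read by 46 probe sets, and where a gene had several, the probe set with the highest mean stood for it. The genes were chosen by name with results of these same arrays in view, namely their levels per RNA sample over groups and replicate numbers. The differences between replicate numbers are therefore given as a description and were not tested.

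RNA was hybridised to Affymetrix arrays in 8 groups, namely testis, ovary, and liver, kidney and hypothalamus of each sex. A group consisted of 3 RNA samples, numbered 1 to 3 in the titles, and each was put on 2 arrays. Per the labels all RNA was bought from a supplier, every RNA sample was a pool of 10 animals, and the tissues were healthy. No treatment, strain or age is given in the sources used here, and the labels do not say whether the same number in different groups stands for the same animals. The liver, kidney, testis and ovary RNA is described as polyA-selected and the hypothalamus RNA as total RNA, while another field gives total RNA for all samples. The summed level of each tissue's own marker genes was highest in the samples of that tissue, for liver 85453 to 102527 in liver samples against 249 to 15291 in the others.

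Interferons are secreted proteins by which cells warn each other of infection. Type I interferons, made by many cells, act through the kinases Jak1 and Tyk2 on a complex that includes Stat2 and Irf9 and binds the interferon-stimulated response element in DNA. Interferon gamma, made mainly by T and NK cells, acts through Jak1 and Jak2 and a DNA element called the gamma activated site, and many target genes answer to both. Induced genes serve antigen presentation, defence inside the cell, recruitment of leukocytes and damping of the signal itself, and in resting tissue most of them run at a low, constant level.

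The promoter windows of the members were searched for these elements, since they are a sequence feature that the choice of genes did not use. RefSeq windows of assembly GRCm38.p6, from 250 bases before to 50 bases after each annotated start, were found for 30 of the 35 genes, in 35 windows. The core GAAANNGAA of the response element, read on both strands, occurred in 15 member windows, or 42.9%, against 8.56% of all 32851 windows. The gamma activated site TTCNNNGAA occurred in 9 member windows, or 25.7%, against 8.3% of all windows. Its stricter form TTCCNGGAA, which overlaps it by definition, was in 3 member windows, or 8.57%, against 1.15%. The TATA box motif TATAAA was in 9 member windows, or 25.7%, against 13.6%. A match describes the letters of a window and does not show that a factor binds there. Neither the response element core nor the gamma activated site was found in the windows of Ubd, Psmb9, Psmb10, Tap1, Tapbp, Ifi47, Irf7, Irf9, Lgals3bp and Oasl2. Those of Psmb9 and Tap1, which lie head to head on chromosome 17, overlap on opposite strands.

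The 250 bases before the start of 5 members are printed 5′ to 3′ in the direction of the gene, with matches to GAAANNGAA or TTCNNNGAA on either strand in capitals. Gbp2 and Cxcl9 are shown because they had among the widest ranges between samples in both liver and kidney, Igtp because both elements lie side by side, Irf1 for its gamma activated site and Ifit1 for its 3 matches to the response element.
Gbp2 (chr3:142620413-142620662, plus strand): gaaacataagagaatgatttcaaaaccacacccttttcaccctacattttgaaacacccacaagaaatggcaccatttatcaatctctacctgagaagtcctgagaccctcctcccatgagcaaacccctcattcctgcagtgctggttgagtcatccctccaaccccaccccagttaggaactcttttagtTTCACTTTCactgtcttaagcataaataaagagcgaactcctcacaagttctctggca
Cxcl9 (chr5:92328080-92328329, minus strand): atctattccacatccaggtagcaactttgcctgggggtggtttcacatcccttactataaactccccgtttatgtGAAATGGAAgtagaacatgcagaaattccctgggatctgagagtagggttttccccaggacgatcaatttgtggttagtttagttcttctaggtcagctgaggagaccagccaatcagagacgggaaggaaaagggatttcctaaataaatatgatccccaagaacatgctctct
Igtp (chr11:58199306-58199555, plus strand): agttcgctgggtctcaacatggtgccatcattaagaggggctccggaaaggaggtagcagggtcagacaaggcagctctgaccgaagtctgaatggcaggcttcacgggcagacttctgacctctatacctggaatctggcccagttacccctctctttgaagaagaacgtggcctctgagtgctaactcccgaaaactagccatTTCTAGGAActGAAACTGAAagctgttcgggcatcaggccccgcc
Irf1 (chr11:53769764-53770013, plus strand): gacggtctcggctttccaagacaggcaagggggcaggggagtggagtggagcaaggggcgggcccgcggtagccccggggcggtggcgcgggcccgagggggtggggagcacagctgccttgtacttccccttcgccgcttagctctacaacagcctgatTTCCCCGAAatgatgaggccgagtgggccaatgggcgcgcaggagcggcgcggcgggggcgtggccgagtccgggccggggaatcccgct
Ifit1 (chr19:34640639-34640888, plus strand): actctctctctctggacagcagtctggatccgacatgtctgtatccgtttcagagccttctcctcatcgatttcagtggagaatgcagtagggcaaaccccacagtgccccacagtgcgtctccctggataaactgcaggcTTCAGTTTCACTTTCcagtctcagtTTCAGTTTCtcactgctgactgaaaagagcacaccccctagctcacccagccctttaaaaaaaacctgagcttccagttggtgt
In Gbp2 the match began 58 bases before the start, and in Cxcl9 it began 175 bases before. In Igtp the gamma activated site began 45 and the response element core 34 bases before the start. Irf1 had its gamma activated site 90 bases before the start of 1 of its windows, and no response element core. The matches of Ifit1 began 109, 103 and 84 bases before the start, the first and the second of them overlapping.

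Several members are neighbours in the genome, with positions from RefSeq on GRCm38.p6. Psmb9 (chromosome 17, 34182030 to 34187330), Tap1 (34187556 to 34197225), Psmb8 (34198195 to 34201454) and Tap2 (34204479 to 34216321) follow each other within the major histocompatibility complex. Ifit2, Ifit3 and Ifit1 lie together on chromosome 19, Gbp3 and Gbp2 on chromosome 3, Cxcl9 and Cxcl10 on chromosome 5, and Igtp and Irgm2 on chromosome 11. Such neighbours are not independent of each other.

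Levels are scaled intensities of the arrays, averaged over the 2 arrays of an RNA sample, and readings of different probe sets are not comparable. The 40th percentile of a sample, which served as the limit for testing a gene, lay between 110.0 and 185.7. The highest mean over the samples of a tissue was in liver for 26 of the 35 genes, in kidney for 8 and in hypothalamus for 1. The lowest mean was in testis for 20, in ovary for 9, in hypothalamus for 5 and in kidney for 1. These orders hold for the trimmed mean scaling, and the calls between testis and ovary, given below, depended on the scaling. For hypothalamus the kind of RNA, per the labels, cannot be told apart from the tissue. Mx1, an antiviral GTPase, rose above the 40th percentile in 2 of the 24 RNA samples and Socs1, an inhibitor of the kinases, in 5. Ubd exceeded it in 12, Cxcl10 and Ifi35 in 17 each, and Cxcl9 and Ifit2 in 18 each.

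**Figure D1:**
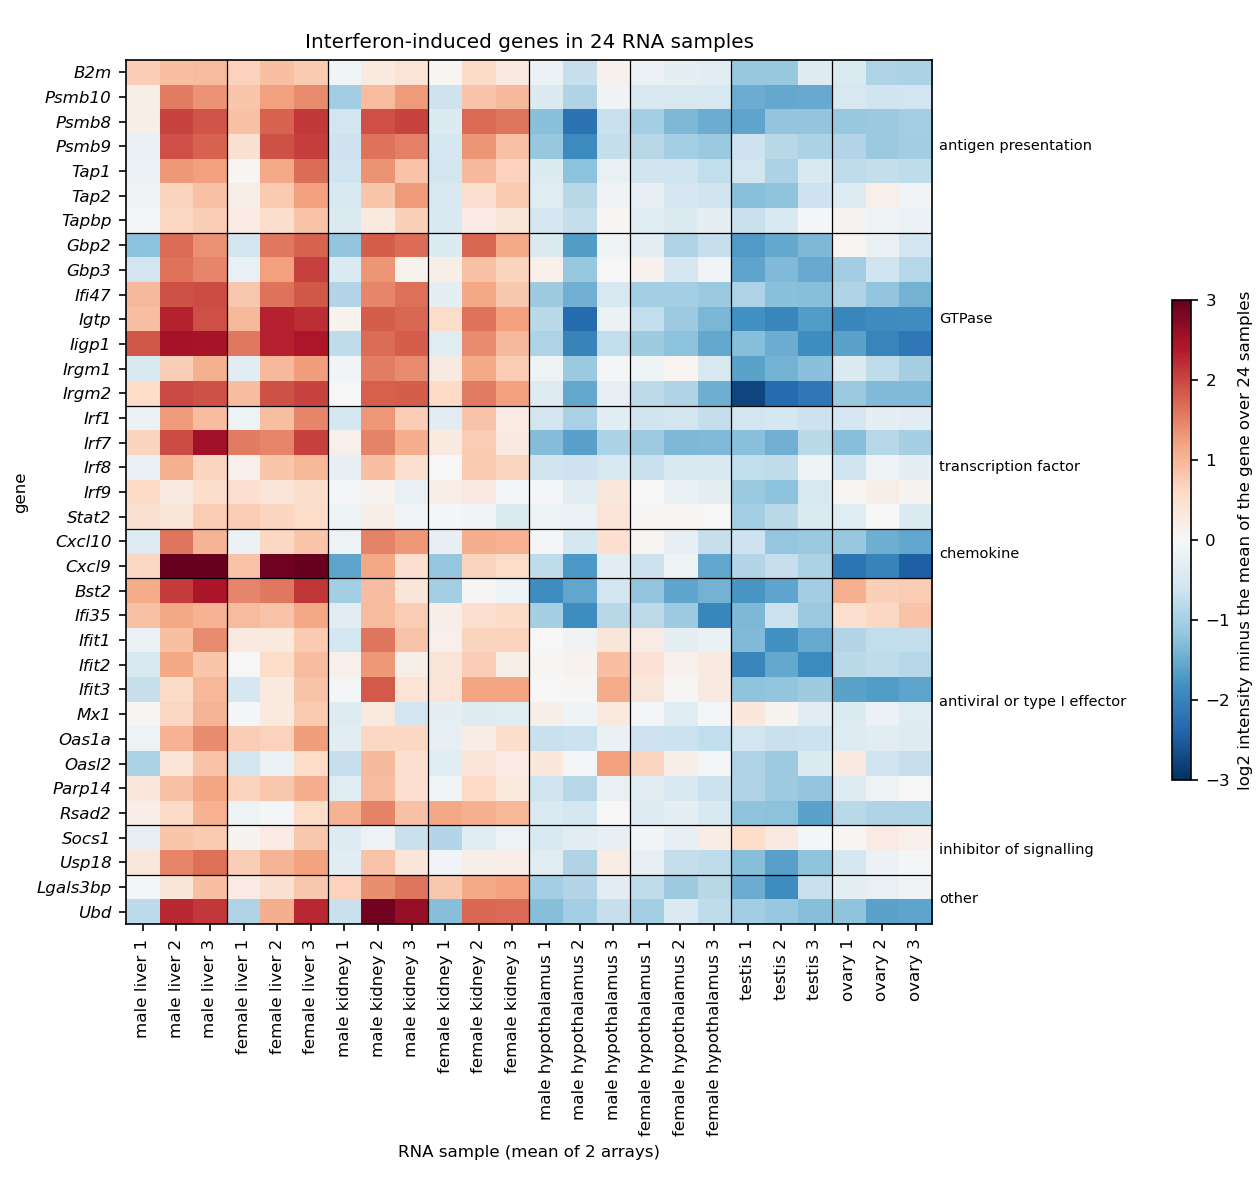
Colour shows, for each of the 35 genes (vertical axis, ordered by role) and each of the 24 RNA samples (horizontal axis, mean of 2 arrays), log2 of the scaled intensity plus 48.3, minus the gene's mean over the 24 samples. The columns of male and female liver 1 and male and female kidney 1 are paler or bluer than the other columns of their tissue for most genes, and male hypothalamus 2 is bluer than the other hypothalamus samples.

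The most marked feature of the group was a difference between RNA samples within liver and within kidney, shared by the sexes. In both organs the samples numbered 1, male and female alike, read lower than those numbered 2 and 3. In liver, 34 members passed the limit on dim probe sets, and in 28 of them both number 1 samples lay below all 4 others, while over all 13847 probe sets 12.3% did so. In kidney this held for 26 of 33 members, against 13.3% of all 13865 probe sets. The reverse order, with both number 1 samples above the other 4, was seen in 0 members of either organ.

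Taking the mean of the sexes, number 1 minus the mean of numbers 2 and 3 had a median of −0.91 on the log2 scale over the members in liver, against 0.06 over all probe sets. The same median in kidney was −1.12, against 0.01. The range between the 3 numbers had a median of 1.06 over members in liver and 0.29 over all probe sets, and 1.32 against 0.34 in kidney. For comparison, the 2 arrays of the same RNA differed by a median of 0.12 in liver and 0.13 in kidney over the members. With the first arrays alone both number 1 samples were lowest in 27 liver and 28 kidney members, and with the technical replicate arrays alone in 27 and 26. The medians moved between −0.79 and −1.0 in liver and between −0.95 and −1.16 in kidney over the other pseudocounts, scalings and choices of array.

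By role, the guanylate-binding and immunity-related GTPases, which attack the vacuoles of intracellular pathogens, had a median of −1.25 in liver and −1.29 in kidney. Both number 1 samples were below the other 4 in 7 of 7 of these genes in liver and in 6 of 7 in kidney. For antigen presentation the medians were −0.88 and −1.52, with 7 of 7 genes in each organ. The 2 chemokines had medians of −1.87 and −1.77, with 2 of 2. Among the antiviral effectors the medians were −0.81 and −0.79, with 6 of 9 in each organ. The transcription factors had medians of −0.89 and −0.69 and only 2 of 5 in each organ, the other members being discussed below.

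Ubd encodes a ubiquitin-like modifier and had the widest range between numbers in both organs. It read 149, 1584 and 1438 in male liver 1, 2 and 3 and 132, 678 and 1573 in female liver. In kidney it read 164, 2490.1 and 2039 in males and 90.8, 1066 and 1057 in females. The number 1 samples did not overlap with the others in either organ. Their readings lay close to the 40th percentile, and female kidney 1 was below that of its sample, so the size of the differences, −2.79 in liver and −3.21 in kidney, is uncertain and no fold is given. Of the members tested, Cxcl9 also had 1 of its 2 number 1 samples in kidney below this limit, and Socs1 had both in liver.

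Gbp2, a guanylate-binding protein, read 373, 3122 and 2513 in male liver and 625, 2929 and 3323 in female liver. Its kidney readings were 388, 3443 and 3111 in males and 698, 3229 and 2135 in females. Here too both number 1 samples were below the remaining 4, with differences of −2.50 in liver and −2.39 in kidney. Its neighbour Gbp3 read 293, 1515 and 1357 in male and 386, 1150.0 and 2055 in female liver, a difference of −2.00. In kidney Gbp3 was closer, at −0.88, and male kidney 3, at 499, lay below female kidney 1, at 528.

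Cxcl9 draws activated T cells and is known chiefly as a target of interferon gamma. In liver it read 716, 5199.5 and 4007 in males and 838, 3654 and 5039 in females. Kidney readings were 115, 1050.1 and 651 in males and 173, 732 and 679 in females. The number 1 samples were lowest in each group, with differences of −2.44 in liver and −2.12 in kidney. The other chemokine, Cxcl10, had differences of −1.30 and −1.42.

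Psmb8, Psmb9 and Psmb10 are the catalytic subunits of the immunoproteasome, which cuts proteins into peptides for display. Psmb8 read 939, 5485 and 5909 in male kidney and 1047, 4653 and 4399 in female kidney. Psmb9 read 1026, 4714 and 4207 in male liver and 1659.9, 4662 and 5212 in female liver. The differences were −1.41, −1.80 and −0.88 in liver for Psmb8, Psmb9 and Psmb10, and −2.30, −1.92 and −1.85 in kidney. Tap1 and Tap2, the subunits of the peptide transporter, had −1.40 and −0.85 in liver and −1.52 and −1.29 in kidney, and its partner Tapbp −0.60 and −0.86. B2m, the shared light chain of class I molecules, moved least of this set, with −0.17 in liver and −0.40 in kidney. Its levels were 16838, 18894 and 19295 in male and 16353, 18868 and 17458 in female liver.

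Iigp1, Igtp, Irgm1, Irgm2 and Ifi47 are immunity-related GTPases. Iigp1 read 1664, 9171 and 10101 in male kidney and 2189.6, 7677 and 5628 in female kidney, a difference of −2.03. In liver its number 1 samples read 10462 in males and 8626 in females, against 14279 to 16177 in the other 4, a difference of −0.70. Igtp was nearly equal in the organs, with −1.25 in liver and −1.29 in kidney, and read 4969, 13139 and 10147 in male and 5212, 13290.3 and 12300.1 in female liver. Its kidney levels were 2814, 9328 and 8778 in males and 3887, 8243 and 6227 in females. Irgm1 and Irgm2 had −1.40 and −1.22 in liver and −1.12 and −1.29 in kidney. Ifi47 had −0.96 in liver and −1.85 in kidney.

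**Figure D2:**
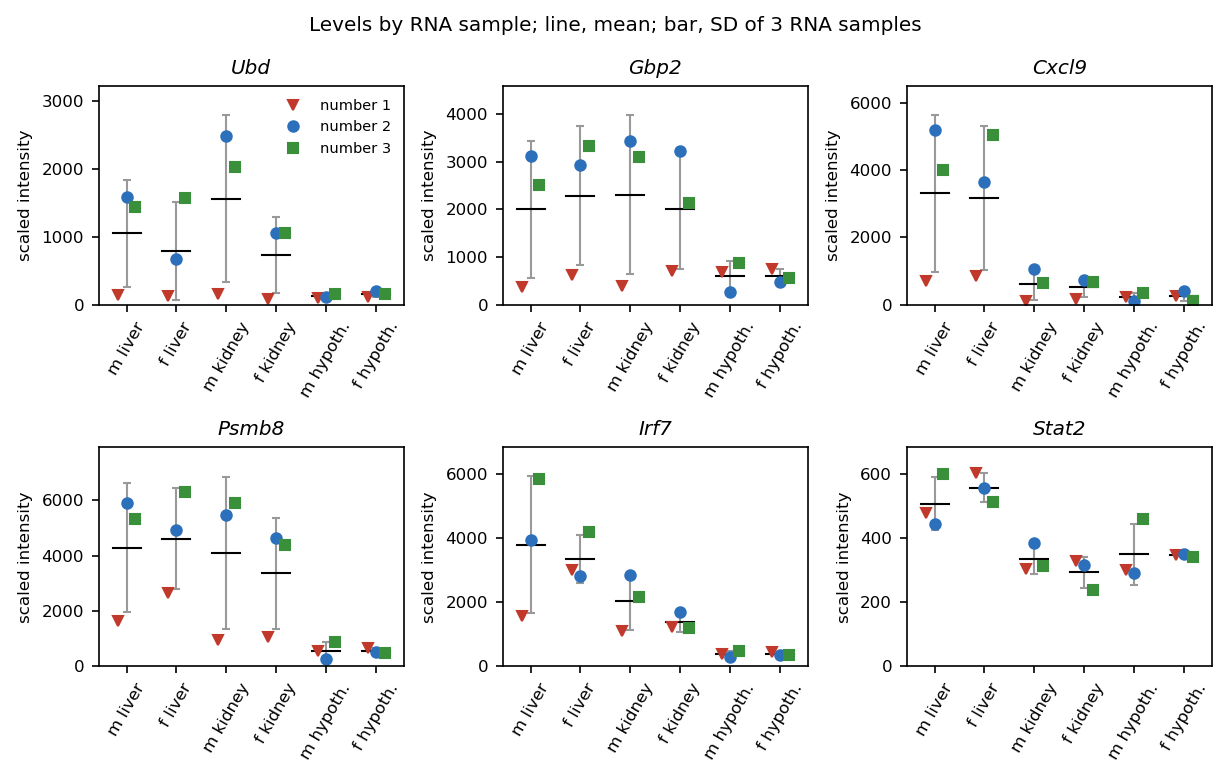
Scaled intensity (vertical axis, linear from 0) of 6 members in the male (m) and female (f) samples of liver, kidney and hypothalamus, with 1 point per RNA sample marked by its number, a line for the mean and a bar for the SD of the 3 samples. For Ubd, Gbp2, Cxcl9 and Psmb8 the triangles of number 1 lie below the other points in liver and kidney, for Irf7 this is clear only in the males, and for Stat2 the numbers are mixed.

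The transcription factors divided. Irf1, a direct target of interferon gamma signalling, had −1.32 in liver and −1.20 in kidney, and Irf8, a factor of myeloid cells, had −0.93 and −0.83. Stat2 and Irf9, which act in the type I complex, had differences near 0, with 0.03 and 0.12 in liver and 0.02 and 0.04 in kidney. Stat2 read 479, 445 and 602 in male and 603, 557 and 514 in female liver. Irf7, which amplifies the type I response, lay between, with −0.89 and −0.69.

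In liver the female number 1 sample stood apart less than the male one for Irf7 and several antiviral effectors, picked here after seeing the values. Irf7 read 1574, 3947 and 5836 in male liver and 3001, 2814 and 4197 in female liver, so that female liver 1 lay above female liver 2. The difference of number 1 from the others was −1.58 in males and −0.19 in females. For Oas1a, an enzyme that senses double-stranded RNA, it was −1.39 and −0.24. For Ifit1, which holds back foreign RNA, it was −1.36 and −0.25, and for Bst2, which tethers budding virus, −1.15 and −0.39. By contrast Gbp2 had −2.76 and −2.25 in male and female liver and Irf1 −1.28 and −1.35. The split did not follow role. Psmb10, of antigen presentation, read 1383, 3653 and 3161 in male and 2184, 2921 and 3304.5 in female liver. The antiviral Ifit3 was low in number 1 of both sexes, at 381, 985 and 1331 in male and 435.5, 798 and 1198 in female liver. These are differences of single samples and the contrast of the sexes in them was not tested.

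The remaining antiviral effectors ranged widely. Ifit3 had −1.29 in liver and −0.96 in kidney, Oasl2 −1.16 and −1.06, and Ifit2 −1.13 and −0.33. Parp14 had −0.50 and −0.79. Rsad2, which makes a chain-terminating nucleotide, had −0.50 in liver and 0.01 in kidney, and Ifi35 had −0.14 and −0.77. Of the inhibitors, Usp18, which removes the ubiquitin-like Isg15 and dampens type I signalling, had −0.79 and −0.60. Socs1, with both number 1 samples of liver below the limit for dim genes, was at least 1.28-fold higher in numbers 2 and 3, counting number 1 at that limit, and was too dim for testing in kidney. Lgals3bp, a secreted glycoprotein, had −0.53 and −0.57.

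**Figure D3:**
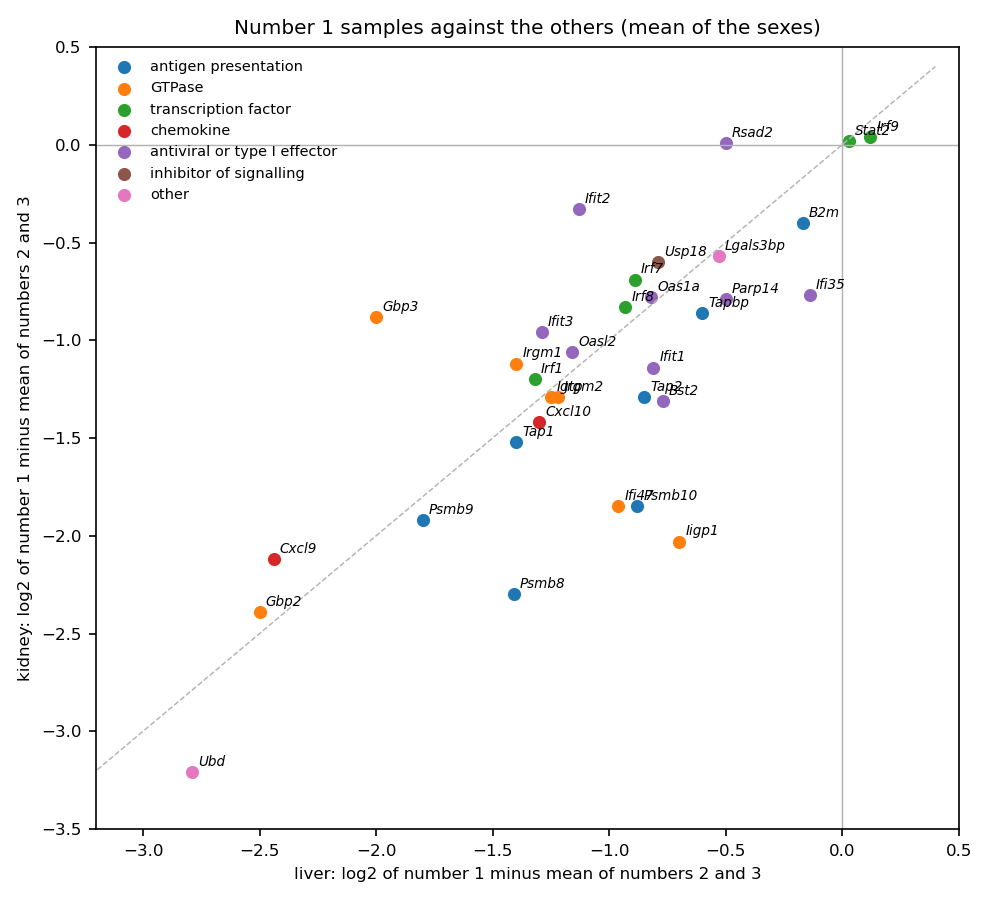
Each point is 1 of the members tested in both organs, placed by its log2 difference of number 1 from the mean of numbers 2 and 3 (mean of the sexes) in liver (horizontal axis) and kidney (vertical axis) and coloured by role, with a dashed line of equality. Ubd lies farthest down at −2.79 and −3.21, and Stat2 and Irf9 lie close to the origin.

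Genes of the pathway outside the group were read from a list of 108, of which 78 were on the array, and levels of the 12 with the highest readings are named. This list too was chosen with earlier results of these data known. Of the other induced genes, 39 of 39 tested in liver and 32 of 37 in kidney were lower in number 1, with medians of −0.48 and −0.44. Over all probe sets 5646 of 13847 in liver and 6771 of 13865 in kidney were lower in number 1. Both number 1 samples were below the other 4 in 25 and 21 of the induced genes, against 12.3% and 13.3% of all probe sets. Gbp6, another guanylate-binding protein, had −1.82 in liver and −2.14 in kidney, and Plac8, a gene of leukocytes and epithelia, −1.09 and −0.89. Ifi27l2a had −1.35 and −0.37, Rtp4 −0.62 and −0.63, and the proteasome activator subunit Psme1 −0.36 and −0.90. The class I heavy chains H2-K1 and H2-D1 had −0.15 and −0.21 in liver and −0.57 and −0.44 in kidney. The membrane proteins Ifitm1, Ifitm2 and Ifitm3, which hinder virus entry, had −0.36, −0.09 and −0.40 in liver and −0.62, −0.37 and −0.57 in kidney.

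The receptors and their kinases were near level, with a median of −0.01 over 8 genes in liver and −0.11 in kidney. Both number 1 samples were below the other 4 in 2 of the 8 in each organ. The lowest differences, picked here after seeing the values, were those of the receptor chains Ifngr2 at −0.62 and Il10rb at −0.35 in liver and Ifnar2 at −0.42 in kidney. The kinase Jak1 had −0.15 and 0.08, and Stat3, a factor of related cytokine signals, 0.19 and −0.13. The gene of interferon gamma, Ifng, was dim, reading 51.2, 113.5 and 92.3 in male liver, 51.1, 73.0 and 106 in female liver, 38.9, 73.2 and 90.0 in male kidney and 44.7, 67.5 and 58.2 in female kidney. All of these except male liver 2 lay below the lowest 40th percentile of a sample, so no statement on its level is made.

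Most lists of leukocyte markers, also chosen with earlier results of these data known, were lower in number 1 as well. All 5 measured MHC class II genes had both number 1 samples below the other 4 in liver and in kidney, with medians of −2.28 and −1.99. Their summed level was 7755, 35765 and 37062 in male liver, 8449, 36696 and 51986 in female liver, 9840.2, 37447 and 46831 in male kidney and 12176, 35297 and 38619 in female kidney. MHC class II is itself induced by interferon gamma, besides marking antigen-presenting cells.

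The 8 general leukocyte markers, among them Ptprc and Coro1a, were also lower in number 1 in 8 of 8 cases in each organ, with medians of −0.90 in liver and −0.70 in kidney. Their summed level was 4392, 12424 and 10825 in male liver, 6687, 9184 and 14091 in female liver, 2784, 6475 and 5205 in male kidney and 3264, 4753 and 5829 in female kidney. Macrophage and Kupffer cell markers had medians of −0.84 over 12 genes in liver and −0.68 over 9 in kidney, with both number 1 samples lowest in 10 and 8. Their sum ranged from 25462 to 67628 in liver and from 6255 to 12992 in kidney, lowest in number 1 in every group. Neutrophil markers had −0.54 over 6 genes and −0.59 over 4, with both number 1 samples lowest in 0 and 2. Their sum in liver was lowest in male liver 1, at 2563, but highest in female liver 1, at 16118, and it ranged from 762 to 1536 in kidney. The plasmacytoid and dendritic cell markers, which include the member Bst2, had −0.31 and −0.93 over 3 genes each, with sums of 1919 to 3905 and 579 to 1663. T and NK cell markers had −0.74 over 8 genes and −0.54 over 6, with sums of 1513 to 4076 and 1107 to 2216. B and plasma cell markers had −0.30 over 5 genes and −0.41 over 3, with sums of 1758 to 4307 and 1179.5 to 6005. Endothelial markers had −0.14 and 0.13. Liver markers read in kidney ran the other way, with 0.88 over 3 genes, 1.81 for Apob and 0.88 for Alb, and sums of 8200, 4444 and 8291 in male and 6151, 3463 and 4400 in female kidney. The 2 kidney markers tested in liver had a median of 0.34, and 0 of the markers read 0 in any sample. The part of these cells in the low readings of the members was not tested, and in whole tissue fewer cells of a type and less RNA per cell cannot be told apart.

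In hypothalamus the members varied less and along other samples. The median range between numbers was 0.41 over 31 members and 0.19 over all probe sets. Number 2 was the lowest number in 28 of the 31, against 29.0% of all probe sets, with a median of −0.32 against the others, while number 1 had 0.12 and number 3 had 0.23. Male hypothalamus 2 was the lowest of the 6 samples in 22 of the 31 members, against 14.7% of all probe sets. Male hypothalamus 3 was the highest in 27, against 14.4%. The difference between the 2 arrays of the same RNA had a median of 0.16 over the members.

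Gbp3 had the widest range there, 0.96, reading 519, 184 and 465 in males and 504, 309 and 432 in females. Gbp2 read 688, 259.6 and 868 in males and 760.1, 486 and 569 in females. Igtp read 1482, 489.9 and 2321 in males and 1569, 1212 and 986 in females, so that in females number 3 was the lowest. Male hypothalamus 2 was the lowest of the 6 in each of these 3 genes. Psmb8 read 566, 264 and 862 in males and 669, 527 and 475 in females. Ifit3 was likewise highest in male hypothalamus 3, at 1445 against 630.0 to 824 in the other 5. Irgm2 read 538, 216 and 602 in males and 399, 366 and 232 in females. The MHC class II sum was likewise lowest in male hypothalamus 2, at 2991, and highest in male hypothalamus 3, at 10504. The sum of the general leukocyte markers was lowest and highest in the same samples, at 3232 and 4009. The part of those cells in the spread of the members was not tested.

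The series was titled for transcription that differs between the sexes, so males were compared with females in each tissue with limma, over all probe sets and with Benjamini-Hochberg adjustment at 0.05. No sex difference of a member passed in liver (0 of 34), kidney (0 of 33) or hypothalamus (0 of 31). At an unadjusted p under 0.05 there were also 0 members in each tissue. Over all probe sets the shares called were 0.0506% in liver, 0.231% in kidney and 0.0508% in hypothalamus. The median male minus female difference over the members was −0.03, 0.15 and 0.03. Standard errors were wide, with medians over members of 0.38 in liver, 0.45 in kidney and 0.21 in hypothalamus, against 0.16, 0.17 and 0.11 over all probe sets. For Gbp2 the difference was −0.32 ± 0.85 (SE, n = 3 per sex) in liver and −0.05 ± 0.82 in kidney, limma adjusted p of 1 and 0.9997. With 3 samples per sex, differences of the size of these errors, and larger ones, could be missed.

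Samples with the same number tended to deviate together in male and female liver, kidney and hypothalamus, so the number was also used as a block. The correlation was weak for number 2 in liver (0.139) and hypothalamus (0.101). Male liver 2 correlated more with female liver 3 (0.286), and male hypothalamus 2 nearly as much with female hypothalamus 3 (0.0906). The labels give no such pairing. It was read from these same arrays, and the members were chosen with levels by number in view, so calls with the block depend on that reading. With the block the median standard errors of the members fell to 0.16 in liver and kidney and 0.18 in hypothalamus. Ubd then passed in kidney, with a male minus female difference of 0.91 ± 0.14 (SE, n = 3 pairs) and a limma adjusted p of 0.0343, where 1.05% of all probe sets were called. Its male reading was above the female one at each number, 164 against 90.8, 2490.1 against 1066 and 2039 against 1057. The lowest of these readings, 90.8 in females, lay below the limit for dim genes, so the size of the Ubd difference is uncertain. In the fit without the block the limma adjusted p of Ubd was 0.9997. In liver and hypothalamus 0 members passed with the block. The lowest limma adjusted p in liver was 0.7216, for Rsad2, at 0.48 ± 0.12, and the only unadjusted p under 0.05 there was that of Rsad2.

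Counted by number, males were above females in all 3 numbers in 3 members in kidney, namely Cxcl10, Tapbp and Ubd, against 15.2% of all probe sets. In liver this held for 4 members, B2m, Ifi47, Iigp1 and Rsad2, against 12.1%. Females were above males at all 3 numbers for Igtp, Irgm1 and Tap2 in liver, against 12.7% of all probe sets, and for Irf9 in kidney, against 18.9%. Without the number 1 samples of liver and kidney, 0 members passed in either organ. By limma's interaction terms, the male minus female difference differed between tissues in 0 of 34 members for each pair of tissues. The shares of all probe sets called were 0.237% for liver against kidney, 0.0178% for liver against hypothalamus and 0.207% for kidney against hypothalamus, and at an unadjusted p under 0.05 there were 0 members in each.

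Testis and ovary, the gonads of either sex, differed in most probe sets, 70.5% of those tested by limma, so a call in a member says little about the group. Of 30 members tested, 2 were higher in testis and 15 lower, while 24.9% of all probe sets were called higher and 45.6% lower. The median difference over the members was −0.48, against −0.35 over all probe sets. This split depended on the scaling. With quantile normalization 4 members were higher and 11 lower, and the median of all probe sets was −0.12. With arrays centred on their medians 7 were higher and 8 lower, and that median was 0.05. The 17 members called kept their sign under both scalings, though 4 and 7 of them no longer passed. Those lost were Gbp3, Irgm1, Rsad2 and Stat2 under quantile normalization, and under median centring also Ifit1, Lgals3bp and Tap2. With all 8 groups in 1 fit, which shares the spread of the other tissues, 10 members were called, all lower in testis. The calls lost there were Cxcl9, Gbp2, Gbp3, Ifit1, Ifit3, Irgm1 and Psmb10, with limma adjusted p from 0.0563 for Psmb10 to 0.3183 for Ifit3. The shares of all probe sets called in that fit and under the other scalings are not given here. These counts and their directions therefore say little about the group.

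Bst2 was the member lowest in testis relative to ovary. It read 143, 166 and 265 in testis 1, 2 and 3 and 1298, 1006 and 1038 in ovary, a log2 difference of −2.29 ± 0.21 (SE, n = 3 per group, limma adjusted p = 1.00e-05). Ifi35, a cytoplasmic partner of Nmi, read 91.0, 176 and 116 in testis and 442, 493 and 588 in ovary, with −1.74 ± 0.21. In both genes the groups did not overlap. The share of all probe sets that separate in this way is not given here. Separation in these and the following called genes is therefore a description only.

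Gbp2 read 257, 295 and 342 in testis and 977, 807 and 620.3 in ovary, with −1.28 ± 0.19. Irgm2 read 65.7, 107 and 128 in testis, near or below the limit for dim genes, and 310.1, 259 and 263 in ovary, with −1.17 ± 0.19. Lgals3bp was uneven in testis, at 652, 487 and 1182, and even in ovary, at 1553, 1627 and 1768, with −1.14 ± 0.27. The ovary values of all 3 genes were above every testis value.

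Usp18 read 181, 132 and 191 in testis and 340.2, 447 and 485 in ovary, with −1.12 ± 0.19. Irf9, part of the type I complex, read 149, 135 and 262 in testis and 394, 436 and 404 in ovary, with −1.06 ± 0.22. Psmb10 was tight in both organs, at 397, 389 and 393 in testis and 849, 786 and 795 in ovary, with −0.96 ± 0.14. None of these groups overlapped.

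Tap2 read 181, 189 and 308 in testis and 369.7, 564 and 470 in ovary, with −0.92 ± 0.22. Parp14, an ADP-ribosyltransferase, read 148, 125 and 114 in testis and 232, 284 and 321 in ovary, with −0.89 ± 0.17. Ovary was above testis in every sample of both. The other 5 lower members were Ifit1 at −0.77, Irgm1 at −0.70, Gbp3 at −0.63, Stat2 at −0.50 and Rsad2 at −0.49. Stat2 lost its call without any of 5 of the 6 samples in turn (limma adjusted p up to 0.1787, without ovary 2), the exception being testis 3. Rsad2 lost it without any of the 3 ovary samples, with adjusted p up to 0.06642.

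Cxcl9 ran the other way, at 219, 259 and 207 in testis and 58.8, 75.1 and 41.3 in ovary (limma adjusted p = 7.49e-05). The ovary readings were all below the 40th percentile, so the gene was tested only through its testis samples and the difference has only a bound. With ovary counted at that limit, Cxcl9 was at least 1.32-fold higher in testis. Ifit3 read 252, 256 and 283 in testis and 179, 168 and 182 in ovary, with 0.48 ± 0.14 and a limma adjusted p of 0.01365, which became 0.06062 without ovary 2. Iigp1 was not called by the probe set that stood for it, at 0.37 ± 0.21, but a second probe set gave 0.76 ± 0.19 (limma adjusted p = 0.005564). For Stat2 a second probe set gave −1.42 ± 0.20 and thus the same direction.

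B2m did not pass, with 4558, 4532 and 7638 in testis and 7378, 5228 and 5217 in ovary. In testis, number 3 was highest in B2m, Bst2, Lgals3bp and Irf9 alike. Without that sample Iigp1, Irf8, Oasl2 and Tapbp passed as well. Tapbp read 727, 850 and 1157 in testis and 1259.9, 1107 and 1044 in ovary. Iigp1 read 1147, 989 and 741 in testis. Irf1 read 848, 866 and 800 in testis and 876, 1031 and 1008 in ovary, which did not pass. Of the other pathway genes, 25 of 30 tested induced genes passed, 22 of them lower in testis, including Ifitm1 at −4.23 ± 0.15 and Ifitm2 at −2.50 ± 0.21. Jak1 was lower in testis by −2.67 ± 0.18. MHC class II genes were called in 4 of 5 cases, 2 in each direction, with sums of 5193 to 7337 in testis and 7257 to 8816 in ovary.

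**Figure D4:**
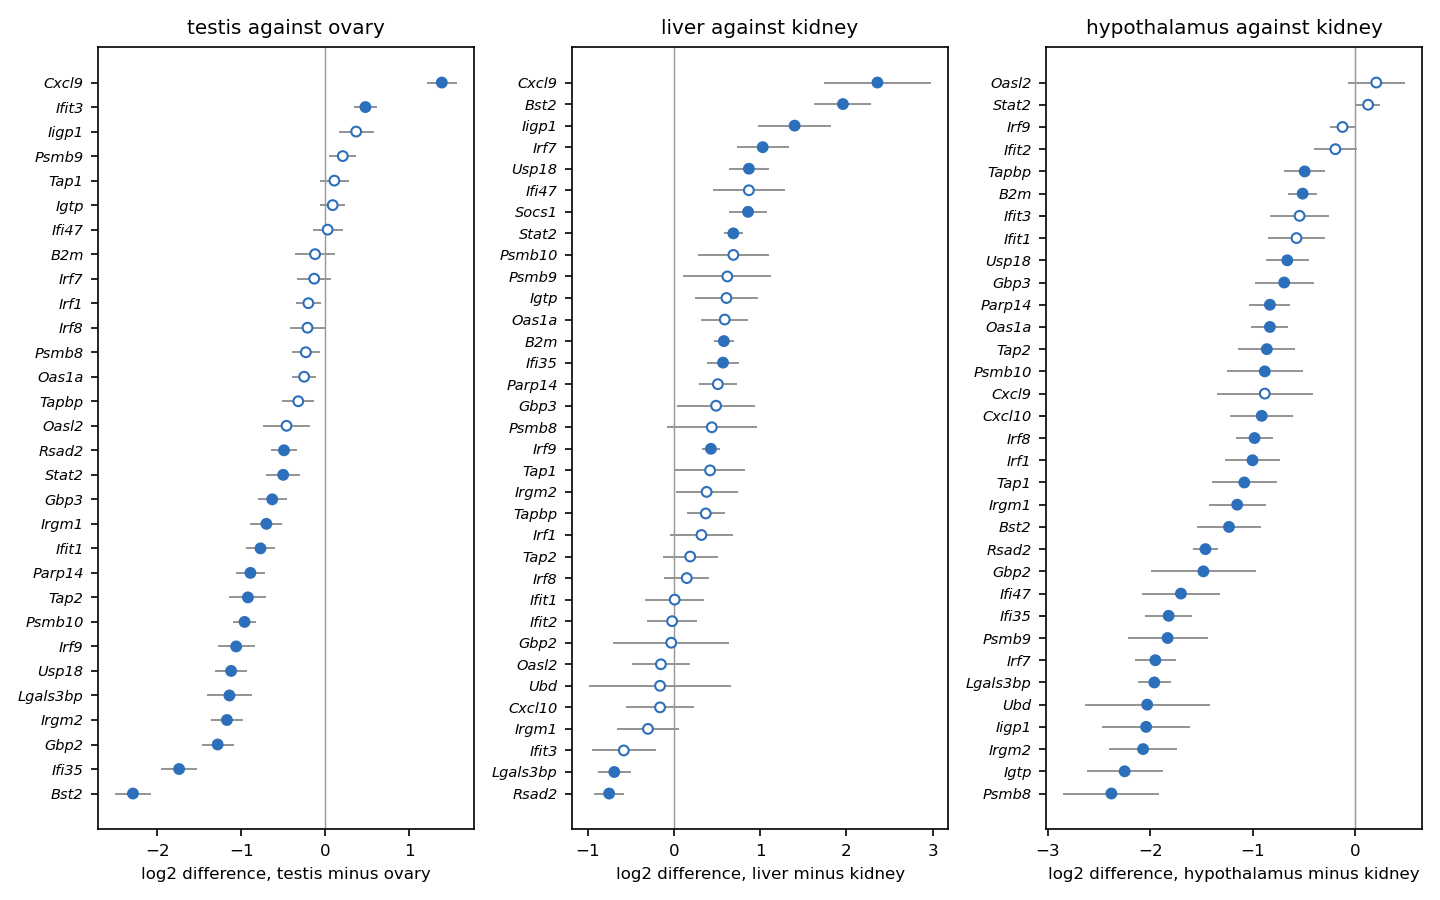
Log2 difference (horizontal axis) with its standard error for each tested member (vertical axis, sorted) between testis and ovary, liver and kidney, and hypothalamus and kidney, with filled points where the limma adjusted p was under 0.05. Most filled points lie left of 0 in the first panel, from Bst2 at −2.29, right of 0 in the second, up to Cxcl9 at 2.36, and all lie left of 0 in the third.

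Liver and kidney, both present in either sex and with the same kind of RNA, were compared over 12 RNA samples. Of 34 members 12 passed, 10 higher in liver and 2 lower, while 55.8% of all probe sets passed, 23.2% higher and 32.6% lower. The median difference over the members was 0.43, against −0.07 over all. By the same reading of the arrays, numbers were taken to pair these samples too. With the number as a block 23 members passed, 20 higher and 3 lower, against 61.3% of all probe sets, with all 12 among them. Without the number 1 samples, left out after seeing the data, 20 passed, 18 higher and 2 lower. The share of all probe sets called in that fit is not given here, so this count says little about the members.

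Cxcl9 was 2.36 ± 0.62 higher in liver (limma adjusted p = 0.006134), where its median over the 6 samples was 3830.3 with a range of 716 to 5199.5, while kidney spanned 115 to 1050.1. Male kidney 2, at 1050.1, lay above both number 1 samples of liver. Bst2 was higher by 1.96 ± 0.33, with 1351 to 3495 in liver and 270.4 to 1168 in kidney, which did not overlap. Iigp1 was higher by 1.40 ± 0.42 and Irf7, the amplifier of type I signals, by 1.03 ± 0.30.

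Usp18 (0.87 ± 0.23), Stat2 (0.69 ± 0.11), B2m (0.58 ± 0.12), Ifi35 (0.57 ± 0.19) and Irf9 (0.43 ± 0.10) were also higher in liver. Socs1, the remaining one of the 10, was below the 40th percentile in all 6 kidney samples, at 28.4 to 80.1, and was tested only through liver, where it read 71.5 to 203. With kidney counted at that limit it was at least 1.07-fold higher in liver (limma adjusted p = 0.004294). Rsad2 was lower in liver by −0.75 ± 0.17 and Lgals3bp by −0.69 ± 0.19. Other probe sets of Rsad2 gave −0.57 ± 0.16, which passed, and 0.05 ± 0.14, which did not. Gbp2 (−0.03 ± 0.67) and Ubd (−0.16 ± 0.82), the members with the widest spread between numbers, did not pass, and with the number as a block their errors were 0.16 and 0.18 and they still did not. Leaving out single samples kept 12 to 14 calls, with 8002 to 8510 over all probe sets. Macrophage and Kupffer cell markers were higher in liver in 11 of 12 cases, with a median of 2.09 and sums of 25462 to 67628 in liver against 6255 to 12992 in kidney. Their part in these differences was not tested.

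Hypothalamus read lower than kidney in 26 of 33 members and higher in 0, while 46.3% of all probe sets were called higher and 32.4% lower, 78.7% in all. The median difference over members was −0.98, against 0.18 over all. The kind of RNA differs between these tissues per the labels and cannot be told apart from the tissue. Psmb8 was lower by −2.38 ± 0.47, Igtp by −2.25 ± 0.37, Irgm2 by −2.07 ± 0.33, Iigp1 by −2.04 ± 0.43 and Ubd by −2.03 ± 0.61, with limma adjusted p between 5.29e-05 and 0.007785. Ubd read 92.6 to 203 in hypothalamus, mostly at or below the limit for dim genes, and was tested through its kidney samples. The size of its difference is therefore uncertain. Psmb8 spanned 264 to 862 in hypothalamus and 939 to 5909 in kidney, which did not overlap.

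Ifi35 was below the 40th percentile in all 6 hypothalamus samples, at 43.2 to 157, and was at least 2.15-fold lower there than in kidney, counted at that limit (limma adjusted p = 5.46e-06). Irf7 (−1.95 ± 0.20), Lgals3bp (−1.96 ± 0.16) and Rsad2 (−1.46 ± 0.12) had smaller errors. The 7 members that did not pass were Cxcl9, Ifit1, Ifit2, Ifit3, Irf9, Stat2 and Oasl2, and among them Stat2 (0.13 ± 0.12) and Oasl2 (0.21 ± 0.28) had positive signs. Stat2 and Irf9, which belong to the type I complex, were among those not called, and so was Cxcl9, known chiefly as a target of interferon gamma. Irf7, which amplifies the type I response, was called lower. A split by type of interferon was not tested. The calls of Gbp3, Psmb10 and Tapbp were each lost without 1 of several samples, with limma adjusted p up to 0.1122, 0.1083 and 0.09558. Cxcl9 passed without male kidney 1, Ifit1 likewise, and without the number 1 samples of kidney 29 members passed, all lower. These samples were left out after seeing the data. The share of all probe sets called without them is not given here, so that count says little about the members. All 5 MHC class II genes were lower too, with a median of −2.04, and their part in these differences was not tested.

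B2m spanned 6247 to 10947 in hypothalamus, with a median of 8533, and 9542 to 15054 in kidney, with a median of 12273, so the ranges overlapped although the difference passed, at −0.51 ± 0.14 (limma adjusted p = 0.004431). Lgals3bp spanned 891 to 1522 in hypothalamus and 3131 to 5916 in kidney.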

How the data were processed

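RNA of 24 samples was measured on 48 Affymetrix arrays. The authors deposited 1 linear intensity for each probe set of each array, per the file headers, and how they summarised probe sets is not stated in the labels. The members and the gene lists used here were chosen with earlier results of these data known.

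Of 22626 probe sets left after 64 controls, 20380 had 1 gene symbol in the platform annotation, 691 several and 1555 none, and 20351 matched assembly GRCm38.p6 by Entrez ID. Each array was brought to the same 2% trimmed mean, which lay between 500.11 and 500.23 as deposited. Arrays of the same RNA correlated at 0.9656 to 0.99 and were averaged after log2 of the scaled intensity plus 48.3, the 20th percentile, which shrinks differences of dim genes. Replicates are RNA pools, so p-values measure the spread between pools, and precision is limited by the number of pools.

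A probe set was tested where at least 3 of the RNA samples compared exceeded their own 40th percentile. Tests used lmFit and eBayes of limma 3.58.1 under R 4.3.3, p-values adjusted by Benjamini-Hochberg and called at 0.05, in fits of the groups compared, and the script was tested on simulated data. The SE is that of the fit. Samples of one number were taken as paired where all 3 same-number correlations of deviations exceeded 0.1, as for the sexes in liver (0.535, 0.139, 0.482), kidney (0.591, 0.424, 0.627) and hypothalamus (0.392, 0.101, 0.328) and for liver with kidney within each sex. Testis and ovary (0.0422, 0.146, 0.0425) and male hypothalamus with kidney did not meet this, while female hypothalamus with kidney did (0.171, 0.176, 0.158). Every member is named, sample values are given for the 5 widest ranges between numbers and the 3 highest readings per tissue and for up to 10 called members per direction in the gonads, and up to 12 pathway genes are named by mean intensity. Alternatives varied the pseudocount, filter, scaling, arrays, prior trend, block, samples in the fit and left out each sample. Figures used matplotlib 3.10.9 under Python 3.11.15.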

Additional observations from a re-analysis of the deposited data

How the results depend on the processing

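With the replicate number as a block, members called rose from 0 to 1 for the sexes in kidney and from 12 to 23 for liver against kidney, and over all probe sets the calls for the sexes went from 32 to 145 in kidney and from 7 to 11 in liver. With all 8 groups in 1 fit, 10 members instead of 17 were called for testis against ovary. Leaving out the number 1 samples of liver and kidney, an alternative chosen after seeing the data, gave 20 members for liver against kidney. The shares of all probe sets called are not given here for this alternative or for the fit of all 8 groups. The block changed no other count of member calls by over 1.5 times. Leaving out each sample in turn gave 0 members for the sexes in each tissue, 14 to 21 for testis against ovary, 12 to 14 for liver against kidney and 23 to 29 for hypothalamus against kidney. Over all probe sets the same settings gave 4 to 7 calls for the sexes in liver, 15 to 53 in kidney and 5 to 8 in hypothalamus. They gave 9600 to 11310 for testis against ovary, 8002 to 8510 for liver against kidney and 12157 to 12587 for hypothalamus against kidney. Among the alternatives run, 0 called members changed sign. Genes near the 40th percentile, such as Mx1 and Socs1, are limited by signal over background.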
